A study of Homo sapiens with 12 samples.

Results

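UM-SCC-047 (UM-SCC-47 in the sample labels) is a cell line from a head and neck squamous cell carcinoma that carries human papillomavirus (HPV+ HNSCC). The comparison was of its whole transcriptome after 72 h with 500 nM JQ1 and after 72 h with the solvent alone, 0.1% DMSO, in cells grown in DMEM with 10% FBS. There were 3 libraries of total RNA in each group, and these 6 libraries were chosen by their labels from the 12 of the series. The other 6 were made in the same way from UPCI-SCC-090, a second HPV+ HNSCC line. Each group was thus 1 established line at 1 dose and 1 time. Of the 20738 gene IDs in the deposited table, 13440 had enough counts in these 6 libraries to be tested and 7298 did not. The question was which genes and gene families, inside and outside the cell cycle, were lower or higher with JQ1.

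JQ1 is a small molecule that fills the acetyl-lysine pocket of the bromodomains of the BET proteins, among them BRD2, so that these proteins leave acetylated histones. The kinase P-TEFb releases paused RNA polymerase II at promoters and is held inactive in a complex with HEXIM1 and the 7SK RNA. BET proteins are also found at enhancers of genes that define a cell type, and HPV+ cancer cells make the viral E6 and E7 proteins, which inactivate p53 and the retinoblastoma protein.

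Levels are given as CPM, the counts of a gene relative to the library's total, after TMM scaling, which sets the bulk of genes equal between libraries, for the 3 DMSO and the 3 JQ1 libraries in the order of their replicate numbers. Differences are log2 fold changes of JQ1 over DMSO with their standard errors, and adjusted p-values are those of edgeR's quasi-likelihood test over the 13440 genes. A gene was called lower or higher at an adjusted p under 0.05. The labels do not say whether the replicates were separate cultures, so the p-values measure only the spread between these libraries, which may be technical.

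Total estimated counts were 20349275 to 27970593 with DMSO and 20430960 to 27723260 with JQ1. The 12 squamous markers were all present and tested, and 6 were lower and 2 higher, with a median of −0.41. Their summed level, 8370 to 9810 CPM with DMSO and 25800 to 35400 CPM with JQ1, holds the large rise of KRT8 described below. Most markers of other cell types were near 0. Of the leukocyte markers 11 of 14 were under 1 CPM in all 6 libraries (CD2, CD3D, CD3E, MS4A1, NKG7 and TYROBP at 0), as were 8 of 10 fibroblast markers (THY1 at 0), 5 of 6 melanocyte, 6 of 9 endothelial, 5 of 7 neuronal (SNAP25 at 0) and 6 of 8 muscle markers (MYOD1 at 0). The leukocyte markers summed to 41.3 to 45.5 CPM with DMSO and 32.7 to 44.5 CPM with JQ1, and the fibroblast markers to 27.3 to 32.1 and 31 to 38.8 CPM. The muscle markers had the largest of these sums, 145 to 152 CPM with DMSO and 66.9 to 85.1 CPM with JQ1. The endothelial markers summed to 28.6 to 34.6 and 28.6 to 46.3 CPM. The neuronal sums were 9.42 to 11.3 and 6.24 to 9.07 CPM, and the melanocyte sums 3.77 to 5.01 and 7.13 to 10.8 CPM. The JQ1 libraries differed among themselves more than the DMSO libraries did. Across genes, log2 CPM correlated at 0.982 to 0.993 within DMSO, at 0.91 to 0.973 within JQ1 and at 0.869 to 0.911 between the groups. A first principal component with 65.4% of the variance separated the groups, and a second with 27.3% separated JQ1 replicate 2 from JQ1 replicate 3. Along the GC content of the genes, log2 CPM had a slope of −0.533 per 10 percentage points in JQ1 replicate 3 and of 0.242 in JQ1 replicate 2. The part of this difference in the results below was not tested, and list counts that moved by more than 1.5 times without a library are given with that value, other than counts of 0 to 2 genes that moved by at most 2 genes.

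JQ1 changed a large part of the transcriptome, and more genes fell than rose. Of the 13440 genes tested 3431 (25.5%) were lower and 2163 (16.1%) were higher, so that 41.6% were called. The counts of each gene list below stand against these shares. The groups did not overlap for 7433 genes (55.3%). The falls were also deeper than the rises. Among the lower genes 2316 had a log2 fold change below −1, 370 below −3 and 56 below −5, whereas among the higher genes 1053 were above 1, 51 above 3 and 6 above 5. The median log2 fold change was −1.34 over the lower genes, 0.98 over the higher genes and −0.03 over all genes tested. The genes that fell held 21.9% of the CPM with DMSO and 8.4% with JQ1, and the genes that rose held 22.1% and 39.7%. The share of higher genes among the calls was 38.7%, and it depended on the scaling and the tool, with 24.1% by library size alone and 50.7% with DESeq2. The median of all genes moved by 0.15 with RLE factors and by −0.25 with library size alone relative to TMM, and all changes below are relative to the TMM scale. The number of higher genes was also the less stable one, at 1198 without DMSO replicate 1 and 1329 without DMSO replicate 3.

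The direction of the calls varied with the level of the gene. Of the 988 genes with a mean under 1 CPM, 38.7% were lower and 6.5% higher, and of the 109 genes at 1000 CPM or more, 8.3% were lower and 39.4% higher. By structure, of 295 genes with a single exon 19.7% were lower and 30.5% higher, and without the histone genes 20.7% and 26.3%. With library size alone the order turned, to 78 lower and 72 higher genes of the 295. Of 6227 genes with 10 or more exons 28.6% were lower and 12.2% higher. By GC content the shares were 6.1% lower and 10.3% higher among 2146 genes under 40% GC and 38.3% lower and 15.4% higher among 2190 genes at 60% GC or more. GC also separated the JQ1 libraries from each other, as described above, and its part in the calls was examined only through the GC-corrected fit, which gave 3789 lower and 2941 higher genes.

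**Figure D1:**
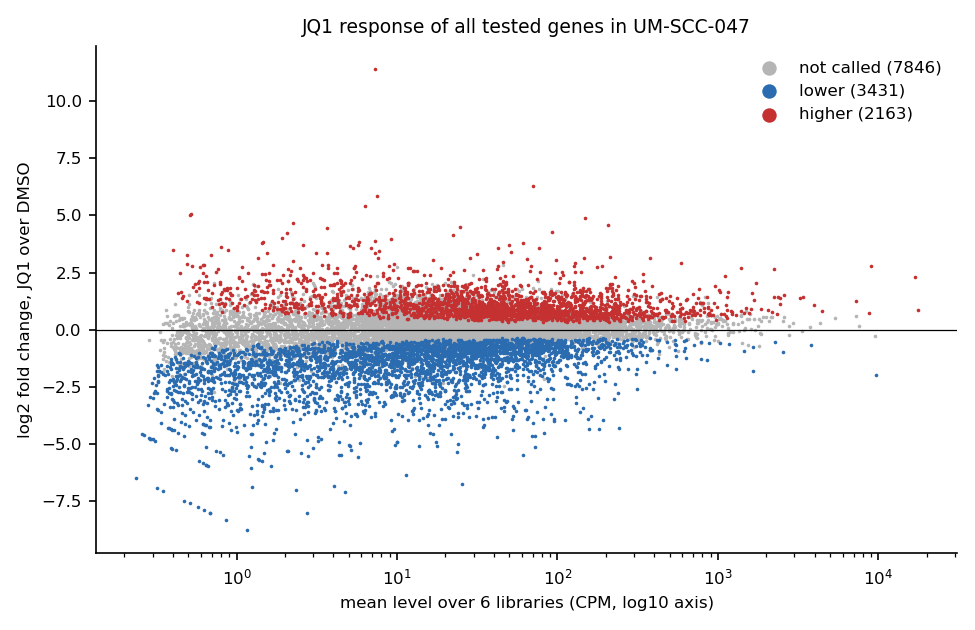
Each point is 1 of the 13440 genes tested, with its mean level over the 6 libraries on the horizontal log10 axis (CPM) and its log2 fold change of JQ1 over DMSO on the vertical axis. The 3431 lower genes are blue, the 2163 higher genes are red and the others are gray, and the share of red points grows and that of blue points shrinks from the left to the right.

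At the extremes, some genes went from a clear signal to none. Of the genes with at least 30 counts over the DMSO libraries, 11 had no count in any JQ1 library. Among them was ASCL2, a bHLH factor of stem and progenitor cells, with 2.69, 2.51 and 1.75 CPM in the DMSO libraries. It was at least 49.9-fold lower with JQ1, the bound being 3 counts over the JQ1 group. CA9, a carbonic anhydrase induced by hypoxia, was at least 36.0-fold lower, and CSF2, which encodes the cytokine GM-CSF, at least 28.2-fold. GLI1, the transcription factor at the end of the Hedgehog pathway, was at least 20.1-fold lower. SFT2D3, a gene with a single exon, was the only gene at 0 with DMSO and at 30 or more counts with JQ1, at 9.82, 24.0 and 9.92 CPM, at least 361-fold higher. Of the genes above 5 CPM with DMSO, FOXJ1, the master factor of motile cilia, nearly disappeared. FOXJ1 was at 5.67, 5.87 and 4.89 CPM with DMSO and 0, 0.0572 and 0 CPM with JQ1. The DMSO group held 434 counts in all and the JQ1 group 1. HAS2, a hyaluronan synthase, was at 7.99, 6.48 and 9.696 CPM with DMSO and 0, 0 and 0.207 CPM with JQ1 (adjusted p = 0.0013). The JQ1 libraries of HAS2 were all below 1 CPM.

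The largest changes in CPM lay among very abundant mRNAs. KRT8 and KRT18, which form the keratin pair of simple epithelia, had the largest gains in CPM, a unit not scaled to gene length. KRT8 was at 5642, 6327 and 5063 CPM with DMSO and 28270.0, 33022 and 23687 CPM with JQ1 (log2 fold change 2.32 ± 0.20, adjusted p = 4.3e-04). KRT18 was at 2362, 2296 and 2204 CPM with DMSO and 14660.0, 20486 and 12135 CPM with JQ1 (2.78 ± 0.24, adjusted p = 3.9e-04). Every JQ1 library was above every DMSO library for both. FTL, the light chain of the iron store ferritin, gained too, from 609 ± 11.4 to 3860.2 ± 1244 CPM (SD, n = 3), and so did ANXA2, a membrane-binding annexin, from 4295 ± 124 to 10197 ± 2611 CPM. The largest loss in CPM was that of IGFBP3, a secreted protein that binds insulin-like growth factors. IGFBP3 was at 14727, 16765 and 14975 CPM with DMSO and 3773, 4749 and 3368 CPM with JQ1 (−1.97 ± 0.19, adjusted p = 5.8e-04), so the groups did not overlap. TUBA1B, a main alpha-tubulin, fell from 2580.3 ± 202 to 744 ± 205 CPM. Tubulin genes did not move together, since the neuronal TUBB3 rose from 39.8 ± 5.11 to 166 ± 34.1 CPM and TUBA1A from 77.5 ± 5.66 to 381 ± 102 CPM.

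Among genes of polymerase release and the Mediator complex the share called was near that of all genes, at 36.4% of P-TEFb and its regulators and 45.5% of Mediator against 41.6%, and the values of single members follow. BRD2 (chromosome 6 from 32936371 to 32949282 of GRCh37), a BET protein, was at 172, 188 and 179 CPM with DMSO and 318, 266 and 284 CPM with JQ1, and rose in each JQ1 library (0.69 ± 0.11, adjusted p = 0.0042). HEXIM1, the inhibitor of P-TEFb, was at 55.4, 57.2 and 58 CPM with DMSO and 209, 222 and 176 CPM with JQ1, a rise of 1.83 ± 0.13 (adjusted p = 2.4e-04). Its paralog HEXIM2 fell from 8.78 ± 0.476 to 2.84 ± 0.228 CPM (−1.62 ± 0.17, adjusted p = 7.7e-04), and so did CCNK, the cyclin of CDK12 and CDK13, from 68.9 ± 1.82 to 33.6 ± 1.85 CPM. Over P-TEFb and its regulators 6 of 22 genes were lower and 2 higher, with a median of −0.05, which was 0.08 with RLE factors and with DESeq2. Of the 22 genes 3 were lower in the RLE, DESeq2 and 12-library fits, and also without DMSO replicate 1, 2 or 3 or JQ1 replicate 1. In the Mediator complex 9 of 33 were lower and 6 higher, and the 6 became 2 if DMSO replicate 1 and 3 if DMSO replicate 3 was left out. MED12, part of its kinase module, fell from 42.1 ± 2.51 to 9.25 ± 1.39 CPM (−2.18 ± 0.17), while MED20 of the head module rose from 49.4 ± 2.34 to 86.1 ± 17.5 CPM (0.80 ± 0.17).

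Several groups of chromatin regulators had more lower than higher genes, and the deacetylases did not. Lower calls also outnumbered higher calls over all genes tested, at 25.5% and 16.1%. The share called was 33.3% of deacetylases and sirtuins, 38.1% of SWI/SNF and 47.8% of DNA methylation and polycomb genes, against 41.6% of all genes. That of the acetyltransferases lay between the SWI/SNF share and the share of all genes, and 62.5% of lysine demethylases were called. Whether these lists differ from all genes was not tested. Of 18 histone deacetylases and sirtuins 2 were lower and 4 higher (2 higher without DMSO replicate 1 or 3 or JQ1 replicate 1), and of 16 lysine demethylases 7 were lower and 3 higher (1 higher without DMSO replicate 1). Of 10 histone acetyltransferases 4 were lower and 0 higher. CREBBP was at 58.2, 54.5 and 61.1 CPM with DMSO and 11.7, 6.58 and 13.6 CPM with JQ1 (−2.44 ± 0.28, adjusted p = 0.0011) and its paralog EP300, which acetylates enhancers with it, at 88.1, 72.4 and 93.7 CPM with DMSO and 26.8, 18.5 and 34.8 CPM with JQ1 (−1.66 ± 0.25, adjusted p = 0.003). The JQ1 libraries of both were below every DMSO library. KAT2A, the catalytic subunit of SAGA, fell from 34.2 ± 2.71 to 10.8 ± 0.335 CPM. Of 21 SWI/SNF genes 7 were lower and 1 higher. ARID1A, the DNA-binding subunit of the BAF complex, fell from 73.2 ± 5.05 to 16.9 ± 3.699 CPM, its ATPase SMARCA4 from 115 ± 11.7 to 35.6 ± 12 CPM, and DPF3, a subunit of differentiated tissues, rose from 0.645 ± 0.0934 to 2.92 ± 0.219 CPM. Among 23 genes of DNA methylation and polycomb repression 10 were lower and 1 higher. DNMT1, the maintenance methyltransferase, was at 169, 199 and 174 CPM with DMSO and 53.8, 32.04 and 44.3 CPM with JQ1 (−2.06 ± 0.21, adjusted p = 7.2e-04). EZH2, the methyltransferase of polycomb repressive complex 2, fell from 57.8 ± 5.89 to 26.3 ± 4.39 CPM and its paralog EZH1 was the single riser, from 17.5 ± 1.59 to 29.3 ± 2.16 CPM. Of the sirtuins SIRT4 rose from 0.975 ± 0.151 to 6.41 ± 1.6 CPM (2.71 ± 0.26, adjusted p = 6.2e-04). In the MYC network 6 of 12 genes were lower and 3 higher. MYC itself was at 96.02, 116 and 97.6 CPM with DMSO and 54.4, 59.2 and 47.5 CPM with JQ1, a fall in each JQ1 library (−0.94 ± 0.14, adjusted p = 0.003), while MXD4, an antagonist of MYC at E-boxes, rose from 21.6 ± 1.25 to 54.2 ± 7.07 CPM.

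Most of the replication-dependent histone genes tested rose. These genes lack introns, lie in clusters on chromosomes 1 and 6, and make mRNAs that end in a stem-loop instead of a poly(A) tail, and the libraries were made from total RNA without selection for poly(A). There were 32 by their current symbols in the deposited data, and of the 21 tested 18 were higher and 1 was lower, with a median of 2.26. All 8 of the tested H2B genes were higher, with a summed level of 87.6, 101 and 101 CPM with DMSO and 562, 605 and 544 CPM with JQ1. The H2A genes with a current H2AC symbol summed to 55.7, 62.2 and 62.8 CPM with DMSO and 479, 629 and 417 CPM with JQ1, with 5 of 6 higher. HIST2H2AA3, under an older symbol, was in neither this sum nor the list, and rose from 0.923 ± 0.327 to 13.7 ± 4.04 CPM. IDs without a symbol were not in the sums either. H2AC20, at 1.06 CPM with DMSO, was the 1 lower gene (−0.90 ± 0.26), and this call was lost when any library but JQ1 replicate 2 was left out. Because these genes are nearly identical, the division of reads among them is uncertain, and the sums are given for that reason.

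H2BC21 was at 8.15, 9.53 and 9.79 CPM with DMSO and 168, 209 and 149 CPM with JQ1. H2BC4 was at 1.998, 2.62 and 2.56 CPM with DMSO and 42.5, 38.6 and 46.2 CPM with JQ1. For both genes all JQ1 libraries lay far above all DMSO libraries. H2AC6 was at 39.3, 41.4 and 45.1 CPM with DMSO and 354, 468 and 325 CPM with JQ1 (3.19 ± 0.18, adjusted p = 1.4e-04), and H1-2, a linker histone, at 29.8, 30.1 and 29.7 CPM with DMSO and 239, 359.7 and 184 CPM with JQ1 (3.13 ± 0.26, adjusted p = 3.9e-04). H2BC12 had a smaller rise (1.49 ± 0.12), from 64.7 ± 4.21 to 182 ± 12.8 CPM. The replication-independent variants did not share the rise, with 4 of 11 lower and 3 higher, and the 4 became 2 without DMSO replicate 1 or 3 or JQ1 replicate 1 or 3. CENPA, the histone of centromeres, fell from 37.8 ± 0.706 to 3.58 ± 1.24 CPM and MACROH2A2 from 49.7 ± 1.504 to 5.08 ± 0.869 CPM, while H2AJ rose from 61.4 ± 6.396 to 187 ± 52.4 CPM. The promoters of H2BC21 and H2BC4 are shown because they had the largest rises after H4C8 among the tested histone genes of the list. That list goes by current symbols, so IDs without a symbol were not ranked. Both hold the letters CCAAT and TATAAA when both strands are searched. They are the 250 bases upstream of the start site in RefSeq (GRCh38.p14), 5′ to 3′ on the strand of the gene, with CCAAT and TATAAA on either strand in capitals.
H2BC21, chr1:149886683-149886932, minus strand: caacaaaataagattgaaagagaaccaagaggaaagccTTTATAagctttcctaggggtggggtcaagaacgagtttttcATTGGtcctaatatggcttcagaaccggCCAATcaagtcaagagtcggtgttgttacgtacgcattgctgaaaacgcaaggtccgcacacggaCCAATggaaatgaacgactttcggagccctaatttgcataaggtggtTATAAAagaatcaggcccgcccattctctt
H2BC4, chr6:26123927-26124176, minus strand: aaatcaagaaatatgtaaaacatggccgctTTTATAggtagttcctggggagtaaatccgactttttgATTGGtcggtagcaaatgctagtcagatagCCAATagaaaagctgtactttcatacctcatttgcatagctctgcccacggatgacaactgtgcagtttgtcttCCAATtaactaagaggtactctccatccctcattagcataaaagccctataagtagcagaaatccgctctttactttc
Among the windows of this length and 50 bases downstream, CCAAT was found in 87.5% of the 24 windows of the tested histone genes and in 34.6% of 35116 windows of all genes, and TATAAA in 66.7% and 11.5%. The sequence TTTGAA was in 37.5% of the histone windows. H2BC21 holds 3 CCAAT and 2 TATAAA, and H2BC4 holds 3 CCAAT and 1 TATAAA. In H2BC21 1 TATAAA was on the strand of the gene and began 30 bases before the start site. The TATAAA of H2BC4 was on the opposite strand, 220 bases before the start site.

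Most of the cell cycle genes were lower. Of 50 genes of G2/M and mitosis 39 were lower and 0 higher, all 50 had a negative log2 fold change, and the median was −3.11. In bulk RNA a smaller number of dividing cells and less RNA per dividing cell cannot be told apart. PLK1, the kinase that drives mitotic entry, was at 136, 149.7 and 131 CPM with DMSO and 4.97, 6.18 and 5.53 CPM with JQ1 (−4.64 ± 0.15, adjusted p = 7.1e-05). CCNB2, a mitotic cyclin, was at 157, 144 and 157 CPM with DMSO and 8.81, 11.2 and 10.4 CPM with JQ1 (−3.91 ± 0.15, adjusted p = 9.5e-05). FOXM1, the transcription factor of the late cell cycle, was at 139.8, 144 and 140.0 CPM with DMSO and 4.103, 3.605 and 4.24 CPM with JQ1, and MYBL2, which works with it, at 157, 184 and 159 CPM with DMSO and 19.6, 22.2 and 19.1 CPM with JQ1. All JQ1 libraries of these 4 genes were below all DMSO libraries. Spindle and checkpoint genes fell to like extents, with log2 fold changes of −3.97 ± 0.11 for TPX2, −3.92 ± 0.13 for PRC1 and −3.83 ± 0.18 for AURKB. CKS2, at −1.08 ± 0.17, was the called member with the smallest fall.

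Of 45 genes of G1/S and DNA replication 38 were lower and 0 higher, with a median of −1.81, beside −3.11 for the mitotic list. E2F2, an activator of S phase genes, had the deepest fall, from 19.3 ± 1.97 to 0.629 ± 0.176 CPM (−4.94 ± 0.27, adjusted p = 1.3e-04). MCM5, a subunit of the replicative helicase, was at 277, 325 and 259 CPM with DMSO and 48.8, 50.8 and 41.6 CPM with JQ1 (−2.61 ± 0.15, adjusted p = 1.4e-04), and RRM2, the inducible subunit of ribonucleotide reductase, at 238, 209.7 and 218 CPM with DMSO and 36.5, 51.3 and 42 CPM with JQ1. Both were lower in each JQ1 library. PCNA, the sliding clamp, was at 257, 217 and 279 CPM with DMSO and 216, 249 and 263 CPM with JQ1 and did not pass the test (−0.05 ± 0.14, adjusted p = 0.81). Of 26 genes of nucleotide and one-carbon synthesis 14 were lower and 3 higher. Without DMSO replicate 1 these were 9 and 0, the higher ones were also 0 without DMSO replicate 2 or 3, and they were 1 without JQ1 replicate 1 and 6 without JQ1 replicate 3. PAICS of purine synthesis fell from 217 ± 7.63 to 81.7 ± 9.17 CPM.

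The promoters of PLK1 and CCNB2 are shown because they hold, side by side, the motifs CHR (TTTGAA) and CCAAT that are known from late cell cycle genes. They are the 250 bases upstream of the start site, on the plus strand, with both motifs in capitals.
PLK1, chr16:23678639-23678888: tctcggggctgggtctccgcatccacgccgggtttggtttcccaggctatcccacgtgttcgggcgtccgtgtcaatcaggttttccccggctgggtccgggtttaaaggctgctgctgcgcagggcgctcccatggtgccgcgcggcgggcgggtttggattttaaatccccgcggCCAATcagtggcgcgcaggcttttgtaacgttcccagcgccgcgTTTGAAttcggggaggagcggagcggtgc
CCNB2, chr15:59104896-59105145: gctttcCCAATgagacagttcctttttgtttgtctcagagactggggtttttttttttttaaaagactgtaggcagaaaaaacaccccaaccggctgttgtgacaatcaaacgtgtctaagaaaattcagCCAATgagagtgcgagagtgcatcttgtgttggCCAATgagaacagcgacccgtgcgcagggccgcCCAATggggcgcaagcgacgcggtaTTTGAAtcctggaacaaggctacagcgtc
In both the CHR began 29 bases before the start site. Of the 54 windows of the G2/M genes 64.8% held TTTGAA and 66.7% CCAAT, against 15.2% and 34.6% of all windows and 10.3% and 34.3% of the windows of tested genes. Windows of the G1/S genes held TTTGAA in 6% and the E2F motif TTCCCGC in 38%, against 6.55% of all windows. Over all lower genes TTTGAA was in 12% of 3990 windows and over all higher genes in 7.47% of 2411. All motifs were searched on both strands, and a match is a match of letters only.

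Most genes known as p53 targets rose. Of 28 tested 23 were higher and 1 lower, with a median of 1.57. CDKN1A, which encodes the CDK inhibitor p21, was at 135, 141 and 132 CPM with DMSO and 1048, 1252 and 829 CPM with JQ1 (2.94 ± 0.18, adjusted p = 1.7e-04). MDM2, the ligase that degrades p53, was at 85.8, 43.9 and 99.1 CPM with DMSO and 503, 259 and 1263 CPM with JQ1 (3.15 ± 0.65, adjusted p = 0.0094). The JQ1 libraries of MDM2 spread widely and all lay above the DMSO libraries. GADD45A, a stress protein that stalls the cycle, was at 35.96, 37.3 and 34.3 CPM with DMSO and 169.8, 190.3 and 151 CPM with JQ1. ZMAT3 rose from 32.2 ± 11.7 to 220.5 ± 98.6 CPM, TP53INP1 from 20.8 ± 3.78 to 174 ± 53.03 CPM and BBC3, which encodes the killer protein PUMA, from 5.04 ± 0.348 to 32.7 ± 8.29 CPM. The 1 lower gene was MDM4, the other p53 antagonist, which fell from 14.5 ± 2.41 to 4.15 ± 1.395 CPM (−1.80 ± 0.30, adjusted p = 0.004).

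Among 10 CDK inhibitors 3 were higher and 2 lower. Besides CDKN1A, CDKN2B (p15) was at 111, 101 and 117 CPM with DMSO and 252, 249 and 284 CPM with JQ1, above the DMSO libraries in each JQ1 library (1.25 ± 0.12, adjusted p = 5.4e-04), and CDKN2D rose from 6.23 ± 0.653 to 16.4 ± 5.49 CPM. CDKN2C (p18) fell from 30.02 ± 4.28 to 3.71 ± 0.5395 CPM (−3.01 ± 0.21, adjusted p = 2.2e-04). CDKN2A, the p16 gene that is high in HPV+ tumors, was at 365, 431 and 351 CPM with DMSO and 440.5, 522 and 265 CPM with JQ1 and did not pass the test (0.10 ± 0.26, adjusted p = 0.78). In the BCL2 family 7 of 16 were higher and 2 lower. The risers were on both sides of apoptosis, with the killers BAX (1.30 ± 0.18) and BCL2L11 (0.78 ± 0.12) and the protector BCL2L1 (0.92 ± 0.17). Of 27 caspases, gasdermins and death receptors 9 were higher and 6 lower (10 lower without JQ1 replicate 3), with GSDME, a pore-forming protein, at 1.63 ± 0.16, the receptor TNFRSF10B at 1.44 ± 0.12, and MLKL, which carries out necroptosis, at −3.33 ± 0.20.

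Genes of the lysosome and its acid pump were higher more often than lower. Of 68 lysosome and autophagy genes 38 were higher and 4 lower (2 lower without DMSO replicate 1, 2 or 3), with a median of 0.74, and 25 were higher in the fit over all 12 libraries. SQSTM1, the autophagy receptor p62, was at 642, 739 and 614 CPM with DMSO and 2690.4, 3418 and 2226 CPM with JQ1 (2.06 ± 0.20, adjusted p = 5.8e-04). GABARAPL1, which links cargo to the autophagosome, was at 86.1, 85.9 and 83.1 CPM with DMSO and 319.9, 421 and 287 CPM with JQ1. Each JQ1 library of both was above each DMSO library. PSAP, the precursor of the saposins, rose from 1346 ± 94.2 to 3555 ± 636 CPM, and NEU1, a lysosomal sialidase, from 52.5 ± 4.12 to 202 ± 52.3 CPM (1.95 ± 0.21, adjusted p = 8.6e-04). Of 21 subunits of the V-ATPase, the proton pump of the lysosome, 10 were higher and 1 lower, with a summed level of 1145, 1089 and 1146 CPM with DMSO and 1940.3, 2476 and 2067 CPM with JQ1. Of 12 cathepsins 5 were higher and 2 lower. CTSS, a cathepsin of antigen-presenting cells, fell from 37.5 ± 4.58 to 2.49 ± 0.225 CPM (−3.90 ± 0.19, adjusted p = 1.3e-04), as did TFEB, the factor that drives lysosomal genes, from 4.08 ± 0.615 to 1.18 ± 0.263 CPM (−1.79 ± 0.25). The promoter of NEU1 holds the palindrome CACGTG, in capitals, which is the core of the motif of the TFEB family and of MYC.
NEU1, chr6:31862822-31863071, GRCh38.p14, minus strand: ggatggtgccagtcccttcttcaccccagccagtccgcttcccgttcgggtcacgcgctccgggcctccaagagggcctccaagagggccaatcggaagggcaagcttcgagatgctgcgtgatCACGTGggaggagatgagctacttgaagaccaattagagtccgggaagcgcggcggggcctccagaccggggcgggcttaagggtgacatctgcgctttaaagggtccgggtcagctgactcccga
CACGTG was found in 18.8% of 64 windows of the lysosome list, in 7.26% of all windows and in 9.18% of the windows of tested genes. The share was higher, at 36%, in 25 windows of the HOX genes, which mostly fell. It was 9.62% over all lower genes and 9.42% over all higher genes.

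Genes of the oxidative stress response were split. Of 25 NRF2 targets 9 were higher and 6 lower, with a median of 0.45, and without JQ1 replicate 3 the higher genes numbered 14. TXNRD1, thioredoxin reductase, was at 385, 339 and 399 CPM with DMSO and 2255, 2559.7 and 2439 CPM with JQ1 (2.69 ± 0.13, adjusted p = 1.3e-04). FTL was at 601, 622 and 605 CPM with DMSO and 3628, 5204 and 2749 CPM with JQ1 (2.66 ± 0.25, adjusted p = 5.8e-04). These were the largest rises of the list and neither gene's groups overlapped. HMOX1, heme oxygenase, rose from 9.89 ± 1.48 to 37.3 ± 5.92 CPM and NQO1, a quinone reductase, from 269.7 ± 2.31 to 742 ± 202 CPM. GPX2, a glutathione peroxidase of epithelia, fell from 5.33 ± 0.7303 to 0.201 ± 0.179 CPM (−4.82 ± 0.74, adjusted p = 0.0031) and the drug exporter ABCC3 from 40.6 ± 2.902 to 15.5 ± 1.66 CPM. The metallothioneins, which bind zinc and copper, were lower in 4 of 5 cases and higher in 0, with MT2A at 177, 201 and 178 CPM with DMSO and 74.1, 100.2 and 69.4 CPM with JQ1 and MT1M falling from 6.21 ± 0.527 to 0.512 ± 0.131 CPM. Of 30 genes of the ATF4 and unfolded protein responses 9 were higher and 2 lower (5 lower without JQ1 replicate 2). ATF3 rose from 23.3 ± 1.85 to 132 ± 28.97 CPM, DDIT3, which encodes CHOP, from 13.9 ± 1.88 to 47.4 ± 3.58 CPM, and asparagine synthetase (ASNS) from 128 ± 7.89 to 303 ± 70.8 CPM, while PHGDH, the first enzyme of serine synthesis, fell from 347 ± 26.8 to 146 ± 28.9 CPM.

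**Figure D2:**
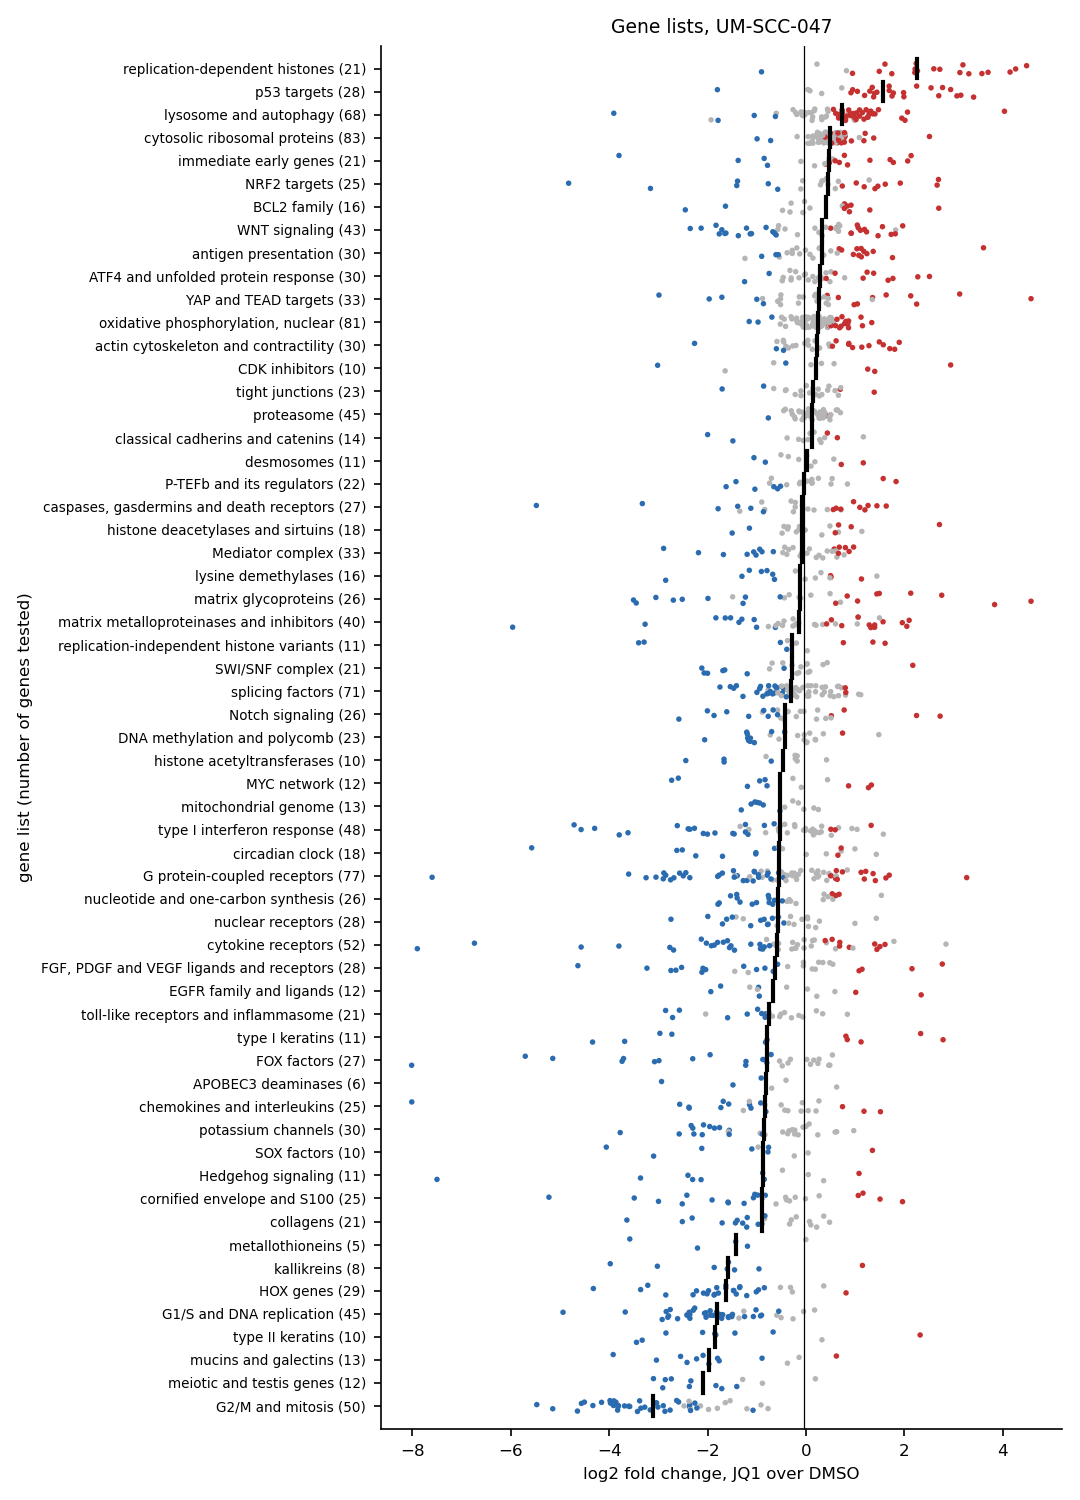
Each row is a gene list named in the text and each gray point is the log2 fold change of 1 tested member, with lower members in blue and higher members in red. The black bar is the median of the list and the vertical line marks −0.03, the median of all 13440 genes, and the mitotic, replication and HOX lists lie left of it and the histones, p53 targets and lysosomal genes right of it.

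Among the keratins, the pair of simple epithelia rose and more of the others were lower than higher. The levels of the 21 KRT genes tested summed to 13683, 15224 and 12612 CPM with DMSO and 52402, 64258 and 43056 CPM with JQ1. Of 10 type II keratins 8 were lower and 1, KRT8, was higher. Of 11 type I keratins 6 were lower and 5 higher. KRT13, a keratin of the suprabasal mucosa, was at 349, 364 and 325 CPM with DMSO and 17.5, 17.9 and 16.1 CPM with JQ1 (−4.34 ± 0.12, adjusted p = 5.1e-05). KRT4, its partner, was at 53.2, 52.9 and 44.9 CPM with DMSO and 4.14, 5.72 and 4.03 CPM with JQ1 (−3.44 ± 0.21, adjusted p = 1.6e-04). KRT5, the type II keratin of the basal layer, was at 630.2, 680.2 and 560.4 CPM with DMSO and 173, 205 and 147 CPM with JQ1 (−1.83 ± 0.16, adjusted p = 4.6e-04). These 3 fell in every JQ1 library. KRT14, the usual partner of KRT5, rose instead, from 118 ± 8.39 to 256 ± 13.3 CPM (1.12 ± 0.11, adjusted p = 6.5e-04), and KRT17, a keratin of wounded and appendage epithelium, from 370.0 ± 48.98 to 1859.5 ± 358 CPM (2.33 ± 0.20, adjusted p = 3.9e-04). KRT7, a simple keratin, did not follow KRT8 and fell from 186 ± 14.9 to 43.5 ± 12.2 CPM (−2.10 ± 0.22, adjusted p = 7.9e-04). Reads of near-identical keratins such as KRT6A and KRT6B or KRT81 and KRT86 may be divided wrongly.

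Genes of the differentiated layers were lower more often than higher. Of 25 genes of the cornified envelope and the S100 family 13 were lower and 4 higher. S100A2 was at 232, 202 and 181 CPM with DMSO and 33.95, 52.4 and 28.6 CPM with JQ1 (−2.42 ± 0.26, adjusted p = 8.0e-04), and TGM1, the transglutaminase that crosslinks the envelope, fell from 13.7 ± 0.394 to 4.57 ± 0.792 CPM. FLG, filaggrin, went the other way at a low level, from 0.649 ± 0.107 to 2.56 ± 0.256 CPM (1.96 ± 0.22, adjusted p = 0.001). Of 8 kallikreins 7 were lower and 1 higher. KLK10 was at 102, 122 and 108 CPM with DMSO and 38.5, 40.6 and 30.4 CPM with JQ1 and KLK6 at 52.3, 55.6 and 48.7 CPM with DMSO and 15.5, 15.8 and 11.7 CPM with JQ1, without overlap, whereas KLK5, a protease that starts the kallikrein cascade of the skin, was at 464, 525 and 450.2 CPM with DMSO and 1068, 1297 and 823 CPM with JQ1 (1.15 ± 0.19, adjusted p = 0.0041). This rise was called in all alternatives but the fit over all 12 libraries (adjusted p = 0.33). Of 13 mucins and galectins 10 were lower and 1 higher, and all 6 tested MUC genes fell. Their levels summed to 583, 418 and 639 CPM with DMSO and 85.3, 86.5 and 99.4 CPM with JQ1. MUC1, a transmembrane mucin, was at 104, 82.3 and 107 CPM with DMSO and 5.91, 6.81 and 6.72 CPM with JQ1 (−3.92 ± 0.17, adjusted p = 1.3e-04), and MUC16, which carries the antigen CA125, at 164, 112 and 184 CPM with DMSO and 16.9, 13.96 and 25.2 CPM with JQ1 (−3.04 ± 0.30, adjusted p = 6.5e-04). Of 11 desmosome genes 2 were lower and 2 higher (36.4% called, near the 41.6% of all genes). The same counts were found among 14 cadherins and catenins (28.6%) and among 23 tight junction genes (17.4%). The medians of these 3 lists lay between 0.015 and 0.147 and fell below 0 with library size alone.

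The HOX genes, which set position along the body axis and lie in 4 clusters, were mostly lower. Of 39 HOX genes, 29 had enough counts to be tested, and 24 were lower and 1 higher, with a median of −1.63. By cluster 8 of 11 HOXA genes, 2 of 2 HOXB genes, 7 of 8 HOXC genes and 7 of 8 HOXD genes were lower. HOXD10 was at 16.01, 15.7 and 17.8 CPM with DMSO and 3.84, 3.38 and 4.44 CPM with JQ1 (−2.08 ± 0.18, adjusted p = 4.5e-04). HOXA10 was at 37.7, 37.2 and 39.95 CPM with DMSO and 18.9, 23.2 and 16.7 CPM with JQ1 (−0.97 ± 0.17, adjusted p = 0.0048). The deepest fall at 5 CPM or more was that of HOXA4, from 5.94 ± 0.128 to 0.579 ± 0.146 CPM (−3.36 ± 0.24, adjusted p = 2.4e-04). HOXC13, a factor of hair and nail, did not pass the test, at 109, 132 and 109.8 CPM with DMSO and 98.2, 102 and 80.96 CPM with JQ1 (−0.32 ± 0.14, adjusted p = 0.13), although it was called lower with library size alone. The summed level of the HOXA genes was 128, 126 and 125 CPM with DMSO and 90.6, 99.9 and 81.2 CPM with JQ1, and that of the HOXD genes was 48.4, 51.1 and 54.9 CPM with DMSO and 17.99, 16.9 and 16.4 CPM with JQ1, so both sums were lower in every JQ1 library.

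Of 27 forkhead (FOX) factors 15 were lower and 0 higher, with a median of −0.80. Besides FOXM1 and FOXJ1, FOXQ1 fell from 10.3 ± 1.46 to 0.778 ± 0.23 CPM (−3.71 ± 0.29, adjusted p = 3.1e-04), FOXF2 from 8.91 ± 0.863 to 1.11 ± 0.143 CPM (−2.99 ± 0.20) and FOXK1, a factor of metabolism, from 80.3 ± 1.87 to 16.3 ± 2.14 CPM (−2.30 ± 0.15). FOXO3, a factor of stress resistance, was at 114, 98.5 and 122 CPM with DMSO and 143, 100.4 and 152 CPM with JQ1 and did not pass the test (0.24 ± 0.19, adjusted p = 0.34), but did without JQ1 replicate 2 (adjusted p = 0.037). Of 10 SOX factors 6 were lower and 1, SOX4, was higher, from 72.6 ± 6.14 to 185 ± 31.4 CPM (1.35 ± 0.16, adjusted p = 0.0013). Of 28 nuclear receptors 13 were lower and 0 higher, and 8 were lower without DMSO replicate 1. NR2F1, an orphan receptor, fell from 32.2 ± 1.44 to 4.797 ± 0.686 CPM (−2.74 ± 0.18, adjusted p = 2.0e-04) and RARG, a retinoic acid receptor of epithelia, from 142 ± 13.1 to 74.8 ± 5.86 CPM. ETV4, an ETS factor downstream of ERK, fell from 9.72 ± 0.226 to 0.301 ± 0.1399 CPM (−5.03 ± 0.33, adjusted p = 2.2e-04). Clock genes fell in 8 of 18 cases and rose in 2. PER3 was at 38.5, 30.2 and 38.9 CPM with DMSO and 8.09, 6.35 and 8.32 CPM with JQ1 and PER2, which closes the same feedback loop, fell from 11.03 ± 0.165 to 1.78 ± 0.173 CPM.

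Signaling pathways held lower and higher genes. In the Hedgehog pathway 7 of 11 genes were lower and 1 higher. The ligand SHH fell from 2.62 ± 0.3905 to 0.246 ± 0.0494 CPM (−3.36 ± 0.26, adjusted p = 3.2e-04), the signal transducer SMO from 6.34 ± 0.644 to 1.44 ± 0.0663 CPM (−2.13 ± 0.18) and the factor GLI3 from 23.7 ± 1.99 to 4.78 ± 1.77 CPM (−2.30 ± 0.32). Of 26 Notch genes 9 were lower and 4 higher (2 higher without DMSO replicate 1 or 3 or JQ1 replicate 1), with the receptor NOTCH3 at 83.6, 96.5 and 82.6 CPM with DMSO and 18.6, 11.4 and 13.7 CPM with JQ1 (−2.58 ± 0.21, adjusted p = 3.7e-04) and NOTCH1 falling from 28.6 ± 3.01 to 9.36 ± 2.36 CPM. Of 43 WNT genes 15 were lower and 14 higher. The number of higher genes was 9 without DMSO replicate 1, 7 without DMSO replicate 3 and 9 without JQ1 replicate 1. The effector TCF7 (−2.13 ± 0.21) and the coreceptor LRP5 (−1.65 ± 0.22) were lower and the secreted inhibitors DKK1 (1.23 ± 0.11), DKK3 (1.46 ± 0.14) and SFRP1 (1.55 ± 0.13) were higher. Of 28 ligands and receptors of the FGF, PDGF and VEGF families 13 were lower and 4 higher. FGFBP1, a carrier that frees FGFs from the matrix, was at 142, 126 and 133 CPM with DMSO and 4.14, 7.496 and 4.598 CPM with JQ1 (−4.63 ± 0.27, adjusted p = 1.5e-04). FGFR1 moved against most of the list, from 10.96 ± 0.976 to 74.8 ± 7.86 CPM (2.77 ± 0.15, adjusted p = 1.4e-04). Of 12 genes of the EGFR family 4 were lower and 2 higher, among them the ligand NRG1 (−1.93 ± 0.14), the receptor ERBB3 (−0.96 ± 0.12) and, rising, the ligands HBEGF (2.34 ± 0.27) and TGFA (1.01 ± 0.15). EGR1, an immediate early factor, was at 13.2, 14.2 and 13.6 CPM with DMSO and 0.979, 0.973 and 0.982 CPM with JQ1 (−3.80 ± 0.17, adjusted p = 1.3e-04), although 11 of 21 immediate early genes were higher and 4 lower. The higher ones were 7 if DMSO replicate 1 or 3 or JQ1 replicate 1 was left out, and the lower ones 2 without DMSO replicate 1.

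Antiviral genes mostly fell and antigen presentation genes mostly rose where they passed the test. Of 48 genes of the type I interferon response 19 were lower and 3 higher (1 higher without DMSO replicate 1 or 2 or JQ1 replicate 1, 5 without JQ1 replicate 2 and 7 without JQ1 replicate 3), with a median of −0.54. All 4 OAS genes, which sense double-stranded RNA, fell, with a sum of 912, 956 and 872 CPM with DMSO and 81.3, 88.8 and 72.6 CPM with JQ1. OASL was at 469, 499 and 422 CPM with DMSO and 20.6, 30.3 and 19.9 CPM with JQ1 (−4.29 ± 0.22, adjusted p = 1.3e-04), OAS3 fell from 256 ± 9.96 to 20.8 ± 4.36 CPM, and RSAD2, the antiviral enzyme viperin, from 41.7 ± 13.9 to 1.75 ± 0.346 CPM (−4.57 ± 0.35, adjusted p = 2.9e-04). MX1, a GTPase that blocks viral replication, was at 208, 222 and 221 CPM with DMSO and 61.01, 68.03 and 51.5 CPM with JQ1 (−1.85 ± 0.14, adjusted p = 2.8e-04). Not all of the list fell, since ISG15 was at 196, 209 and 161 CPM with DMSO and 159, 209.9 and 114 CPM with JQ1 and did not pass the test (−0.23 ± 0.24, adjusted p = 0.48) and IFI6 rose from 60.5 ± 5.37 to 151 ± 51.9 CPM (1.32 ± 0.26, adjusted p = 0.0081). Of 30 antigen presentation genes 12 were higher and 3 lower (1 lower without DMSO replicate 1, 2 or 3 or JQ1 replicate 1). B2M, the light chain of HLA class I, was at 1824, 1624 and 2001 CPM with DMSO and 4190.3, 5079 and 4768 CPM with JQ1 (1.37 ± 0.15, adjusted p = 9.4e-04). HLA-E rose from 295 ± 32.5 to 696 ± 98.9 CPM, the peptide transporter gene TAP2 from 140.3 ± 10.9 to 317 ± 30.4 CPM, and MICA, a ligand of killer cells, from 22.6 ± 1.05 to 76.4 ± 18.01 CPM.

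Sensors of foreign nucleic acid and cytokine receptors were lower more often than higher. Of 21 toll-like receptor and inflammasome genes 9 were lower and 0 higher, and 15 were lower with library size alone. CGAS, which senses DNA in the cytosol, fell from 21.2 ± 1.68 to 3.56 ± 0.675 CPM (−2.57 ± 0.21, adjusted p = 3.5e-04) and MAVS, the relay of RNA sensors, from 37.95 ± 0.507 to 16.6 ± 1.82 CPM. Of 52 cytokine receptors and their relatives 22 were lower and 9 higher (5 higher without DMSO replicate 1 or 3), with IL4R at 68.9, 73.98 and 62.8 CPM with DMSO and 18.1, 18.3 and 17.8 CPM with JQ1 (−1.92 ± 0.13, adjusted p = 2.2e-04), and of 25 chemokines and interleukins 11 were lower and 3 higher (1 higher without DMSO replicate 1). Of 6 APOBEC3 deaminases, which edit cytosines in viral and cellular DNA, 3 were lower and 0 higher. APOBEC3B, the member known to rise with HPV, was at 232, 241 and 215 CPM with DMSO and 25.4, 39.7 and 24.9 CPM with JQ1 (−2.93 ± 0.22, adjusted p = 2.7e-04), and the groups lay far apart.

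**Figure D3:**
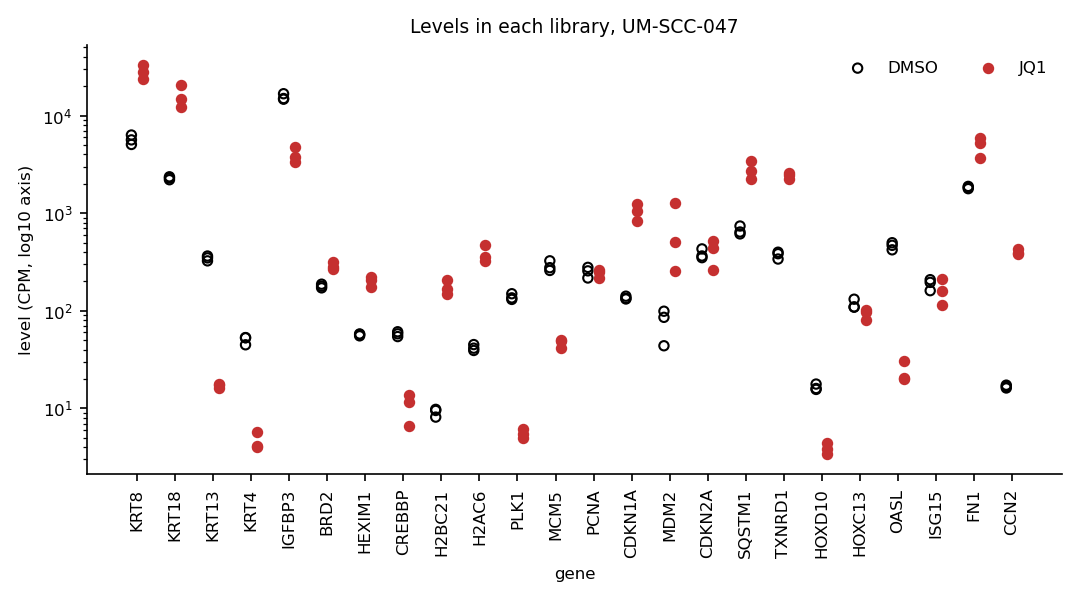
Levels of 24 genes in each library on a log10 axis of CPM, with the 3 DMSO libraries as open circles and the 3 JQ1 libraries as filled circles. In every gene shown except ISG15, PCNA and CDKN2A the filled and the open circles do not overlap.

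Matrix and contractile genes moved both ways. Of 33 YAP and TEAD targets 10 were higher and 5 lower, with a median of 0.26, and 8 were lower without JQ1 replicate 3. CCN2, a secreted matricellular protein, was at 17.3, 16.8 and 16.2 CPM with DMSO and 391, 426 and 381 CPM with JQ1. CCN1, its paralog, was at 129.8, 137 and 113 CPM with DMSO and 550.3, 626 and 486 CPM with JQ1 (2.13 ± 0.15, adjusted p = 2.3e-04). ANKRD1, a muscle ankyrin protein, was at 6.62, 4.82 and 6.28 CPM with DMSO and 46.6, 34.3 and 73.5 CPM with JQ1 (3.12 ± 0.33, adjusted p = 7.9e-04). All JQ1 libraries of these 3 were above all DMSO libraries. YAP1 itself was at 1019, 668 and 1124 CPM with DMSO and 619, 467 and 800.5 CPM with JQ1 and did not pass the test (−0.58 ± 0.27, adjusted p = 0.14), although it was called lower in the GC-corrected fit (adjusted p = 0.034), and TEAD3 fell from 43.8 ± 1.99 to 21.9 ± 3.21 CPM. The promoters of CCN2 and ANKRD1 are shown for their GGAATG sequences, the core of the motif of TEAD factors, in capitals.
CCN2, chr6:131951373-131951622, GRCh38.p14, minus strand: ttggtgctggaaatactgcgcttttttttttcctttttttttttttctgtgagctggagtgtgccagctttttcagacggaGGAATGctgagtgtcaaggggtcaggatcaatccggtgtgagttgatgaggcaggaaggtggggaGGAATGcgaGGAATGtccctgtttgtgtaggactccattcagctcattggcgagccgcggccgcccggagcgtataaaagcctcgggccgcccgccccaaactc
ANKRD1, chr10:90921088-90921337, GRCh38.p14, minus strand: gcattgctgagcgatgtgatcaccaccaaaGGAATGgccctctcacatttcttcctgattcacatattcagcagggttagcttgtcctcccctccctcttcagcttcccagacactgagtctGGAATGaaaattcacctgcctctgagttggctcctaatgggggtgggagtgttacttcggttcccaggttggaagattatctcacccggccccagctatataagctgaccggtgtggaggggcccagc
CCN2 holds 3 and ANKRD1 holds 2. Of 35 windows of the list 34.3% held GGAATG, against 14% of all windows and 11.4% of the windows of tested genes. The share was also high, at 32%, in 25 windows of the HOX genes, which mostly fell. It was 11.8% over all lower genes and 11.5% over all higher genes.

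Of 30 genes of the actin cytoskeleton 12 were higher and 3 lower (6 lower without JQ1 replicate 2 and 1 without DMSO replicate 1 or 3 or JQ1 replicate 3), with a median of 0.23, which fell below 0 with library size alone. TAGLN, an actin-binding protein of smooth muscle, was at 109, 105 and 88.6 CPM with DMSO and 353, 488 and 282 CPM with JQ1 (1.89 ± 0.22, adjusted p = 0.0012), TPM1, a tropomyosin, rose from 217 ± 20.5 to 646 ± 74.8 CPM, and MYLK, the kinase of myosin light chain, fell from 53.6 ± 1.92 to 11.1 ± 2.97 CPM (−2.26 ± 0.23). Matrix glycoproteins were divided, with 9 of 26 lower and 9 higher and a median of −0.12 that turned positive with RLE factors and with DESeq2. FN1, fibronectin, was at 1883, 1841 and 1784 CPM with DMSO and 5944, 3714 and 5277 CPM with JQ1 (1.44 ± 0.20, adjusted p = 0.0022). FBN1, fibrillin, was at 48.04, 41.7 and 45.7 CPM with DMSO and 347, 233 and 336 CPM with JQ1 (2.76 ± 0.19, adjusted p = 2.2e-04). TNC, tenascin C, fell (−3.50 ± 0.18, adjusted p = 1.3e-04), and FBLN1, fibulin, fell from 278 ± 22.9 to 114 ± 9.79 CPM. Of 21 collagens 12 were lower and 0 higher (3 higher without JQ1 replicate 2), with COL17A1, the hemidesmosomal collagen, at 465, 517 and 452 CPM with DMSO and 176, 103 and 160.3 CPM with JQ1 (−1.70 ± 0.22, adjusted p = 0.0015). Of 40 matrix metalloproteinases and their inhibitors 12 were higher and 10 lower, with a median of −0.15 that turned positive with RLE factors and with DESeq2. The membrane-bound MMP14 rose from 367 ± 27.99 to 894 ± 143 CPM and the inhibitor TIMP2 from 415 ± 5.21 to 1090.1 ± 93.8 CPM, while MMP7, matrilysin, fell from 4.91 ± 0.736 to 0.503 ± 0.1104 CPM. SERPINB2, a plasminogen activator inhibitor, was at 30.1, 24.4 and 25.2 CPM with DMSO and 0.6399, 0.744 and 0.982 CPM with JQ1 (−5.07 ± 0.25, adjusted p = 1.3e-04).

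Of the 13 mRNAs of the mitochondrial genome 7 were lower and 0 higher, with a median of −0.53. MT-ND5, a subunit of complex I, was at 1240.4, 974 and 1433 CPM with DMSO and 459, 488 and 519 CPM with JQ1 (−1.32 ± 0.17, adjusted p = 0.0016). MT-CO1, a subunit of cytochrome c oxidase, was at 9983, 10414 and 10928 CPM with DMSO and 8579, 8567 and 8851 CPM with JQ1 and did not pass the test (−0.27 ± 0.13, adjusted p = 0.16), although it was called lower with library size alone. Of 81 nuclear genes of oxidative phosphorylation 15 were higher and 3 lower. The share called, 22.2%, was below the 41.6% of all genes. The higher ones were 1 without DMSO replicate 1, 5 without DMSO replicate 2 or 3 and 31 without JQ1 replicate 3, and the lower ones 1 without DMSO replicate 1 and 13 without JQ1 replicate 2. Cytosolic ribosomal protein genes were higher in 27 of 83 cases and lower in 2 (34.9% called), with a median of 0.49. The higher ones were 8 without DMSO replicate 1, 9 without DMSO replicate 2 or 3, 15 without JQ1 replicate 1 and 58 without JQ1 replicate 3, and 12 with library size alone. The 2 lower genes were RPL39L (−0.99 ± 0.16) and RPL7L1 (−0.72 ± 0.11), both relatives of a main ribosomal gene. Of 71 splicing factors 22 were lower and 2 higher (33.8% called). The lower ones were 12 by RLE factors, 13 without DMSO replicate 1 and 14 without DMSO replicate 3 or JQ1 replicate 1. HNRNPD, which also binds AU-rich mRNA, was at 212, 191 and 186 CPM with DMSO and 68.5, 72.7 and 71.6 CPM with JQ1 (−1.47 ± 0.11, adjusted p = 2.7e-04), and SNRPA, a protein of the U1 particle, fell from 58.9 ± 2.25 to 17.5 ± 3.85 CPM. Of 45 proteasome genes 1 was lower and 1 higher (4.4% called), which became 6 lower without JQ1 replicate 2 and 7 higher without JQ1 replicate 3.

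Meiotic genes and ion channels were mostly lower where they moved. Of 12 meiotic and testis genes 9 were lower and 0 higher, with SYCE2 of the synaptonemal complex falling from 5.48 ± 0.164 to 0.637 ± 0.119 CPM (−3.10 ± 0.21, adjusted p = 2.3e-04) and MEIOB, a meiotic recombination protein, from 7.91 ± 0.498 to 1.54 ± 0.414 CPM. Of 30 potassium channel genes 13 were lower and 0 higher. KCNN4, a calcium-gated channel of epithelia, was at 44.8, 49.05 and 39.7 CPM with DMSO and 8.69, 10.5 and 7.34 CPM with JQ1 (−2.33 ± 0.19, adjusted p = 3.7e-04), and KCNMA1, the large-conductance channel, fell from 25.9 ± 0.345 to 6.12 ± 0.668 CPM. Of 77 G protein-coupled receptors 32 were lower and 13 higher, and the higher ones numbered 4 to 8 without DMSO replicate 1, 2 or 3 or JQ1 replicate 1. GPRC5A, an orphan receptor induced by retinoic acid, rose from 1304 ± 58.2 to 3464 ± 489 CPM (1.41 ± 0.15, adjusted p = 8.5e-04), and ADGRF1, an adhesion receptor, fell from 191 ± 22.6 to 37.2 ± 4.88 CPM (−2.36 ± 0.16).

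Called genes also lay side by side in the genome. Among tested genes in the order of GENCODE 44 on GRCh37, there were 30 runs of 5 or more neighbors that were all lower and 4 that were all higher, against a background of 25.5% lower and 16.1% higher genes. How many runs these shares alone would give was not computed. The share of lower genes also rose with GC content, as described above. Its part in the runs and in the shares by chromosome was not tested. The longest was of 15 genes on chromosome 19, with a median of −1.70. It holds IL27RA, a cytokine receptor subunit that fell from 10.4 ± 0.698 to 0.746 ± 0.161 CPM, and PRKACA, the catalytic subunit of protein kinase A. Gene families made up other runs. A run of 8 on chromosome 12 from 52626304 to 53207900 held KRT7, KRT86, KRT81, KRT83, KRT6B, KRT6A, KRT5 and KRT4. A run of 7 on the same chromosome from 54366910 to 54449814 went from HOXC11 to HOXC5, and one of 6 on chromosome 7 from 27185015 to 27239710 held HOXA6 to HOXA13. Further runs were of KLK6 to KLK13 on chromosome 19, of OAS1, OAS3 and OAS2 with a pair of neighbors on chromosome 12, and of 5 protocadherins on chromosome 5. The longest higher run, of 6 genes on chromosome 1 from 149754227 to 149858232, held the histones H2BC18, H3C14, HIST2H2AA3, H3C15 and H2BC21 besides FCGR1A, and a run of 5 histones lay on chromosome 6 from 26124373 to 26285866. By nuclear chromosome the share of lower genes ran from 14.2% of 219 genes on chromosome 13 to 32.6% of 334 on chromosome 22, and 7 of the 13 mitochondrial mRNAs were lower.

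**Figure D4:**
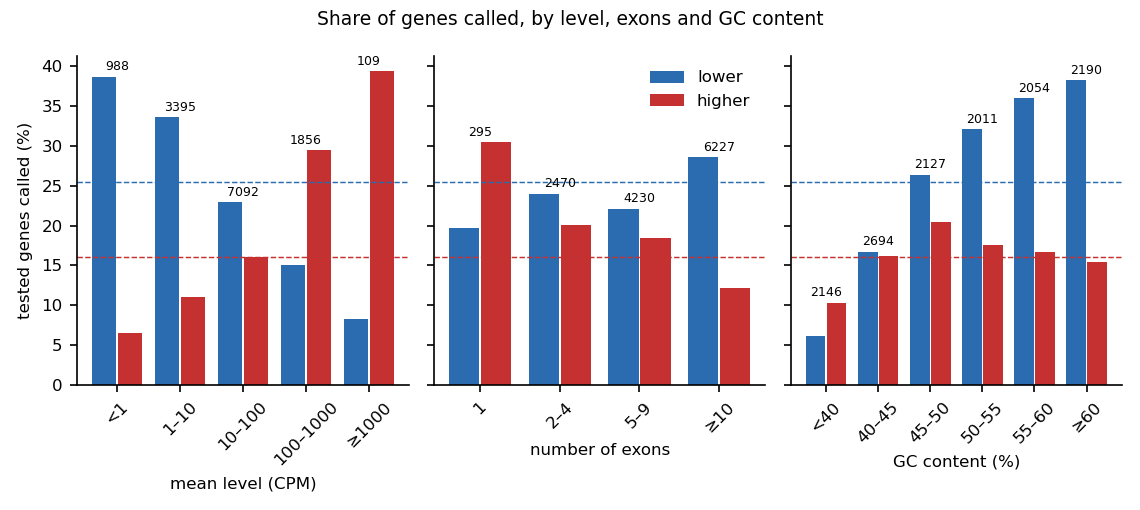
Bars give the percentage of tested genes that were lower (blue) and higher (red) with JQ1, by mean level in CPM, by number of exons and by GC content in percent, with the number of genes above each pair. The dashed lines mark the percentages over all 13440 genes, 25.5% lower and 16.1% higher.

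Few noncoding genes were in the table, with 102 long noncoding RNAs tested, of which 32 (31.4%) were lower and 12 (11.8%) higher. LINC01559 was at 23.4, 18.6 and 25.9 CPM with DMSO and 0.188, 0.286 and 0.362 CPM with JQ1 (−6.34 ± 0.32, adjusted p = 1.3e-04), so that it nearly vanished with JQ1. GPC1-AS1, antisense to a glypican gene, rose from 2.23 ± 0.399 to 15.6 ± 2.06 CPM (2.80 ± 0.22, adjusted p = 3.2e-04). The libraries were stranded, but no source read here says whether the counting used the strand. The IDs without a symbol in the annotation have no gene type there either. They may be coding genes, and they could not enter the gene lists, which go by symbol. Of these IDs, ENSG00000203812 rose from 9.72 ± 0.924 to 287 ± 90.6 CPM and ENSG00000161570 fell from 5.44 ± 0.302 to 0.115 ± 0.0399 CPM.

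The response in UM-SCC-047 was set beside that of UPCI-SCC-090, whose libraries and controls are its own. Of 12327 genes tested in both lines, 4965 were called in UM-SCC-047, and 4318 of these had the same sign in UPCI-SCC-090. The difference between the lines was tested as an interaction over the 12 libraries, and 945 of 14396 genes (6.56%) passed, 422 toward a higher log2 fold change in UPCI-SCC-090 and 523 toward a higher one in UM-SCC-047. This number fell to 463, 540, 467 and 499 without UM-SCC-047 DMSO replicate 1, 2 or 3 or JQ1 replicate 1, and was 1775 without UPCI-SCC-090 JQ1 replicate 2. Over the members tested in both lines, the mitotic genes were alike in direction, with a median of −3.11 here and −2.81 in UPCI-SCC-090, as were the histones, with 2.26 here and 2.59 in UPCI-SCC-090, and the p53 targets, with 1.69 here and 1.31 in UPCI-SCC-090.

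Keratins, the cornified envelope and the matrix held many of the genes that differed between the lines. Of the genes called in both lines with a difference that passed the test, 134 moved in opposite directions, 51 of them lower in UM-SCC-047 and higher in UPCI-SCC-090 and 83 the reverse. Among the type I keratins 8 of 10 genes tested in both lines passed the test of the difference, among the type II keratins 6 of 6, among the cornified envelope and S100 genes 11 of 20, and among the matrix glycoproteins 9 of 20, against 6.5% of all genes tested in both. KRT13 fell in UM-SCC-047, as described above, and had a log2 fold change of 4.56 in UPCI-SCC-090 (difference 9.01 ± 0.41, adjusted p = 8.6e-07). KRT4 likewise stood at 5.49 there (difference 9.06 ± 0.53, adjusted p = 8.6e-06). KRT18, which rose in UM-SCC-047, was at −0.45 there (−3.13 ± 0.41, adjusted p = 0.0012). FN1 and FBN1 rose in UM-SCC-047 and were at −3.38 and −1.96 in UPCI-SCC-090 (differences −4.71 ± 0.40 and −4.65 ± 0.45, adjusted p = 1.1e-04 and 2.8e-04). TAGLN was at −2.65 there (−4.45 ± 0.40, adjusted p = 1.6e-04) and OAS1 at 2.97 (5.34 ± 0.52, adjusted p = 2.8e-04), against 1.89 ± 0.22 and −2.27 ± 0.15 in UM-SCC-047. The interaction was fitted with scaling over all 12 libraries, so a difference is not exactly that of the log2 fold changes of each line. By contrast PLK1 was at −4.64 ± 0.15 here and −3.84 in UPCI-SCC-090, and its difference of 0.91 ± 0.42 did not pass the test (adjusted p = 0.25).

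**Figure D5:**
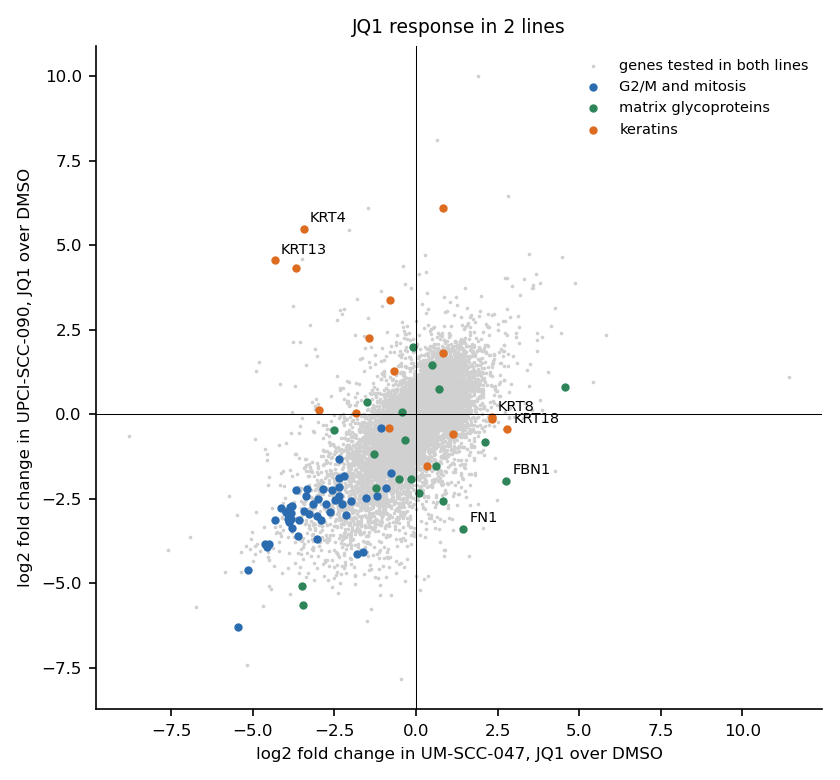
Each gray point is 1 of 12327 genes tested in both lines, with its log2 fold change in UM-SCC-047 on the horizontal axis and in UPCI-SCC-090 on the vertical axis. Keratins (orange), matrix glycoproteins (green) and G2/M genes (blue) are marked, and KRT13 and KRT4 lie in the upper left and FN1 and FBN1 in the lower right quadrant, while the G2/M genes lie below 0 on both axes.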

How the data were processed

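Total RNA of UM-SCC-047 (3 DMSO and 3 JQ1 libraries) and, for the difference between lines, of UPCI-SCC-090 (another 6) was sequenced by the authors after depletion of ribosomal RNA. The deposited table holds estimated counts per gene, 1 column per library, not scaled, which the authors made with Salmon, 0.8.2 in the submitters' processing notes. The transcript index and build are not given in the sources read, and no column of per-sample values was left unused. These estimates were rounded to integers, and genes were kept with edgeR's filterByExpr (minimum count 10, minimum total 15). TMM factors and quasi-likelihood F tests came from edgeR 4.0.16 in R 4.3.3, with the 6 libraries of UM-SCC-047 in 1 fit, no covariate and Benjamini-Hochberg adjustment. Standard errors were taken as the log2 fold change over the root of F. The difference between lines was the interaction term of a fit over 12 libraries. The fits were tested on simulated counts. Alternatives were RLE and upper-quartile factors, library size alone, no filter, a mean of at least 1 CPM, DESeq2 1.42.0, a GC correction (lowess span 0.3), a replicate block and leaving out each library. Depth limits genes of few counts, and a count of 0 is given with a bound of 3 counts over the group, which covers counting error only.

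Of 20738 gene IDs 20015 were named and placed with GENCODE 44 on GRCh37, and 723 have no name here. Promoters are from RefSeq (GRCh38.p14), where 10602 of the tested genes were matched by symbol, and motif shares are over windows from 250 bases before to 50 bases after a start site. The lists and the genes were chosen with earlier results of these data known. Genes were named as the largest rises and falls in fold and in CPM without overlap at 5 CPM or more, as up to 4 members per list and direction, as called noncoding genes, or as the most abundant members of a list. ASCL2, ASNS, AURKB, BCL2L11, CA9, CCNB2, CKS2, CSF2, DPF3, FBLN1, FLG, GLI1, H2AC20, LRP5, MCM5, MMP7, MX1, MYBL2, OAS1, OAS3, RRM2, SHH and TFEB were named after their values were seen. Some genes that this rule names are not reported here.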

Additional observations from a re-analysis of the deposited data

Results flagged for a closer look

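The JQ1 response differed between the lines for 45 of the 183 genes named in the report, by the interaction term of edgeR's quasi-likelihood test at an adjusted p under 0.05. Values are the log2 fold change in UPCI-SCC-090 minus that in UM-SCC-047, so a negative value is a higher log2 fold change in UM-SCC-047. There were 25 negative and 20 positive differences. The explanation of these differences was not tested.

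Among stratified keratins and cornified genes that fell in UM-SCC-047, the differences were KRT5 (1.96), TGM1 (2.98), S100A2 (3.67), KRT13 (9.01) and KRT4 (9.06). Among keratins that rose there, they were KRT18 (−3.13), KRT17 (−2.37), KRT8 (−2.3) and KRT14 (−1.64). Among matrix, adhesion and contractile genes that rose there, they were FN1 (−4.71), FBN1 (−4.65), TAGLN (−4.45), CCN2 (−3.68), MMP14 (−3.14), CCN1 (−2.85) and TIMP2 (−1.83).

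The other genes with a higher log2 fold change in UM-SCC-047 were GPC1-AS1 (−4.61), FGFR1 (−2.99), GSDME (−2.74), ATF3 (−2.12), TAP2 (−2.0), SFRP1 (−2.0), TUBA1A (−2.0), DKK3 (−1.83), DKK1 (−1.76), GPRC5A (−1.67), TXNRD1 (−1.62), H2BC4 (−1.47) and SOX4 (−1.46). Those with a higher log2 fold change in UPCI-SCC-090 were TPX2 (1.18), NR2F1 (1.44), MACROH2A2 (1.57), IGFBP3 (1.89), CDKN2B (2.06), MT2A (2.44), CTSS (3.3), ABCC3 (3.49), FGFBP1 (3.69), EGR1 (3.99), FOXQ1 (4.68), OAS1 (5.34) and GPX2 (6.5).

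For SFT2D3 (−10.26), ASCL2 (8.32) and FOXJ1 (8.14), which had 0 or 1 count in 1 group of UM-SCC-047, the size of the difference depends on the prior count of the fit and is no bound.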

How the results depend on the processing

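The number of lower genes, 3431, stayed within 1.5 times under the alternatives run, from 2316 when a log2 fold change beyond 1 was also asked for to 4589 with library size alone, and from 2422 to 3756 when a library was left out. The number of higher genes, 2163, was less stable. It was 1348 in the fit over all 12 libraries and 1053 when a log2 fold change beyond 1 was also asked for, and it ran from 1198 to 3051 when a library was left out. The number of genes that differed between the lines, 945, ran from 463 to 1775 when a library was left out, and from 752 with RLE factors to 1222 with library size alone. The cause of these shifts was not tested. Of the 183 named genes none changed direction past the threshold, and 12 pairs of gene and alternative lost a call, 11 of them for H2AC20 and 1 for KLK5, while 6 gained one. The fits of gene lists beyond the scaling and GC alternatives were added after seeing the data.

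Replicate numbers were shared by the groups, but the labels do not say that they mark a shared culture. The deviations of same-numbered libraries correlated at −0.215, 0.215 and 0.509 across genes. For replicate 3 the library of the same number was the best match in both directions. In both groups the slope along GC content was highest in replicate 2 and lowest in replicate 3. These values do not settle whether the numbers pair the libraries, and the main fit treated them as unpaired. With a replicate block 3450 genes were lower and 2164 higher, with the GC correction and the block 3664 and 2620, and 1103 differed between the lines. H2AC20 lost its call under the block and YAP1 gained one (−0.58).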
